A study of Homo sapiens with 4 samples.

Results

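The glycolysis genes described here are GAPDH, TPI1, PGK1, ENO1, ALDOA, PKM, LDHA, GPI, PGAM1 and HK2. They were taken by name, and every RefSeq transcript record mapped to one of these names was kept, which gave 34 records of 10 genes among 53209 records and 24684 named genes in each library. The RNA came from the miRNA pull out assay in DU-145, an established human line grown from a metastatic prostate carcinoma. Cells of the miR-28CT arm received 60 nM of an untagged miR-28-5p duplex, and cells of the miR-28BIO arm received 60 nM of a mix of biotin-tagged duplexes with a thiouridine at nucleotide 8 or 18, so that both arms carried additional miR-28-5p. All cells were irradiated at 365 nm with 2 J/cm2 about 24 h later, 15 µg of their RNA was held on streptavidin beads for 4 h, and the retained RNA was sequenced as stranded total RNA in 50-base single reads. There were 2 libraries per arm, and the comparison of miR-28BIO with miR-28CT asks which RNAs are retained with the tagged miRNA. Values are therefore amounts of RNA recovered on the beads, not levels in the cell, and a change in the cell and a change in recovery cannot be told apart.

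Glycolysis splits glucose into pyruvate in the cytosol and yields ATP and NADH. HK2 phosphorylates glucose, GPI isomerises the product, ALDOA cleaves fructose bisphosphate further along the pathway, and TPI1 interconverts the 3-carbon products of that cleavage. GAPDH then forms the first high-energy intermediate and NADH, PGK1 and PKM make ATP, PGAM1 and ENO1 carry out the steps between them, and LDHA reduces pyruvate to lactate. Many tumour cells run this pathway to lactate even with oxygen present. Because their messenger RNAs are abundant in most cells, several of these genes, above all GAPDH, serve as references in qRT-PCR, and GAPDH was one of the internal controls of the study's qRT-PCR together with ACTB and HPRT1.

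The values are Cufflinks FPKM, fragments per kilobase of transcript relative to the mapped fragments of a library. Where 4 values follow each other, their order is miR-28CT replicate 1, miR-28CT replicate 2, miR-28BIO replicate 1, miR-28BIO replicate 2. Judged by the deposited coverage divided by FPKM, 17.9, 13.0, 17.3 and 14.7 M reads lie behind the values. To set the libraries on 1 scale, FPKM were divided by factors of 1.06, 0.850, 1.06 and 1.09, obtained as medians of ratios, and are called scaled FPKM. A level is the scaled FPKM summed over the records of a gene, and a log2 fold change is the difference of mean log2(scaled FPKM + 0.1) between arms, which understates the change of low genes. Of the 34 records, 18 were listed at 0 in all 4 libraries, 16 were above 0 in at least 1, and 10 were above 0 in all 4.

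Keratins of epithelial cells were present in all 4 libraries. Deposited FPKM of KRT18 were 27.9, 83.7, 18.1 and 37.4, KRT8 and KRT19 ranged from 13.3 to 78.4, and the mesenchymal VIM from 142.5 to 251.1. EPCAM was between 3.41 and 5.26 and CDH1 between 0.907 and 1.77. Of the prostate luminal genes given here, KLK3 and TMPRSS2 were listed at 0 in all 4 libraries. The blood cell genes PTPRC, CD3E, HBB and HBA1, the endothelial PECAM1 and the fibroblast DCN were listed at 0 throughout, VWF did not exceed 0.021 and COL1A1 did not exceed 0.178.

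The main TPI1 record, NM_000365, needs a remark before its values. Its FPKM was 37.8, 150.8, 19.4 and 91.1 in the 4 libraries, but its FPKM_status was LOWDATA in every library, a status that Cufflinks gives to loci it regards as too complex or too shallowly sequenced. The coverage of this record corresponds to 907, 2645, 452 and 1804 reads. The same status in all 4 libraries was given to 639 records, of which 46 were above 0 in any library, and NM_000365 was number 3 of those 46 by mean FPKM. The other 33 records of the glycolysis genes had status OK throughout. A sum over OK records alone therefore leaves TPI1 with NM_001258026, at 7.92, 0, 3.44 and 0 scaled FPKM, which misses most of the gene. Levels and fold changes below use all records whatever their status, a choice made after the status of TPI1 was seen. Among the 10 genes it changes TPI1 only, whose log2 fold change from OK records was -0.59 (SE 2.92 by limma, adjusted p = 1.00). Counts of genes called are given for OK records.

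None of the 10 glycolysis genes was called as different between the tagged and the untagged miR-28-5p by limma, which had no replicate block, and the lack of a call does not show equal levels. Their values tended to be lower in the miR-28BIO libraries under median-of-ratios scaling and higher under scaling to equal total FPKM. The log2 fold change was below 0 in 9 of the 10 genes, all but HK2, and ranged from -1.03 for TPI1 to 0.39 for HK2 with a median of -0.70. This median changed in size with the library left out, and was weaker without miR-28CT replicate 2 or without miR-28BIO replicate 1. TPI1 was then -0.021 and -0.068 and GAPDH -0.28 and -0.42, while PKM, LDHA and PGAM1 moved further below 0. Leaving out a library makes the replicate numbers unequal between arms, so differences between replicates enter these values. Over all 11325 genes tested, those whose mean scaled FPKM reached 0.5, the median was -0.084. Among the 525 abundant genes tested, whose mean scaled FPKM reached 50, a comparison chosen after seeing the data, it was -0.82 and 78.3% were below 0. Of the 10 glycolysis genes, 6 are among these 525, and GPI, PGK1, PGAM1 and HK2 are below that level. The median of the glycolysis genes was lower than that of all genes.

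With limma and Benjamini-Hochberg adjustment, 0 of the 10 glycolysis genes were called in either direction at an adjusted p of 0.05. Over the 11307 genes tested with OK records, 0 were called higher (0%) and 3 lower (0.0265%), and the 3 were the small nucleolar RNAs SNORD58A, SNORD12C and SNORD57, named after their values were seen and listed at 0 in both miR-28BIO libraries. No gene was called when any 1 of the 4 libraries was left out. At an unadjusted p of 0.05, limma without a block gave 250 genes higher and 91 lower in the miR-28BIO libraries, with none of the glycolysis genes among them. The more frequent direction turned with the replicate number as a block, which gave 1158 higher and 1756 lower (25.8% of all genes), 3 glycolysis genes among them. Among the 15587 transcript records tested, 0 were called higher (0%) and 0 lower (0%), against 325 and 232 at an unadjusted p of 0.05, and 0 of the 14 tested records of the glycolysis genes were called. An exact permutation test of a single gene with 2 against 2 libraries cannot give a two-sided p below 0.333.

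Separation of the arms was also counted. Both miR-28BIO libraries were below both miR-28CT libraries in 3 of the 10 genes, ALDOA, PKM and PGAM1, against 12.7% of all genes tested and 23.4% of the 525 abundant genes. In 0 of the 10 were both miR-28BIO libraries above both miR-28CT libraries, against 12.3% of all genes tested. When libraries with the same replicate number were set side by side, a comparison also chosen after seeing the data, miR-28BIO was below miR-28CT in both comparisons in 8 of the 10 genes, against 39.8% of all genes tested and 65.0% of the abundant genes. HK2 was above miR-28CT in both, and PGK1 was below it in replicate 1 and above it in replicate 2. The signs depend on the scaling. With equal total FPKM, run over all records as a combination chosen after seeing the data, the median of all genes tested was 1.12 and that of the glycolysis genes 0.59, a difference of -0.53 from all genes beside -0.61 under the scaling used here. All 10 fold changes were then above 0, against 94.9% of all genes tested. Both miR-28BIO libraries were below both miR-28CT libraries in 0 of the 10 genes (0.651% of all genes) and above them in 2, GPI and HK2 (18.8%), and miR-28BIO was above miR-28CT in both same-numbered comparisons in 9 (83.5%). In the replicate 2 libraries, records under 300 bases held 60.7% (miR-28CT) and 61.8% (miR-28BIO) of the total FPKM, against 22.1% and 14.9% in the replicate 1 libraries, and their part in this shift was not tested.

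**Figure D1:**
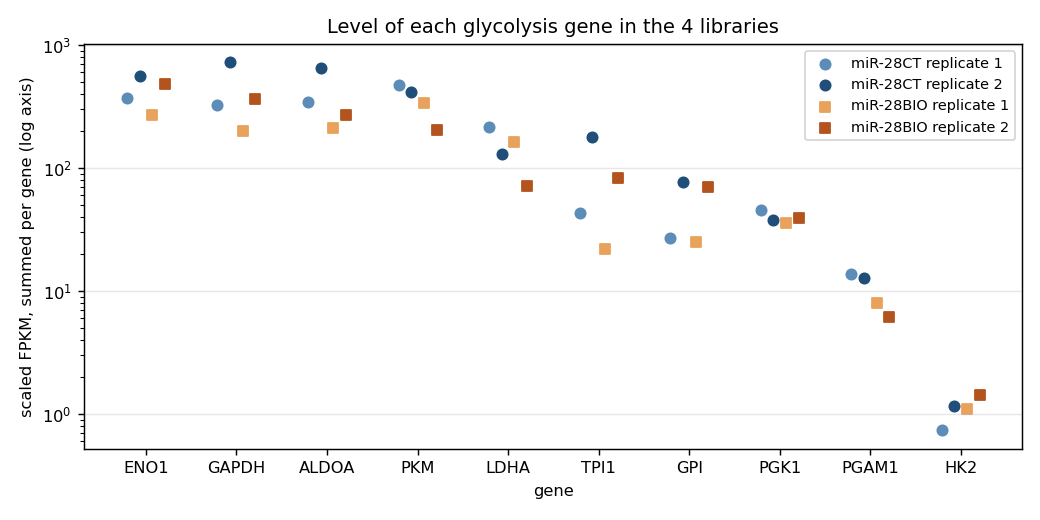
Scaled FPKM summed per gene (log axis) of the 10 glycolysis genes, 1 point per library, circles for miR-28CT and squares for miR-28BIO. ENO1, GAPDH, ALDOA and PKM lie between 199.1 and 723.9 in the 4 libraries, HK2 lies between 0.736 and 1.42, and the replicates of an arm differ most in TPI1.

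The genes covered a wide range of levels. By the mean over the 4 libraries, ENO1, GAPDH, ALDOA and PKM were numbers 59, 62, 69 and 72 of the 11325 genes tested, LDHA was number 178, TPI1 313, GPI 528, PGK1 657, PGAM1 2670 and HK2 9828. Neighbours in this order overlapped in their ranges over the libraries, except that the range of PGK1 lay above that of PGAM1, and the range of PGAM1 above that of HK2. FPKM are per length, so these levels can be set against each other, within the limits of the read assignment described for single records.

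The entry of glucose into the pathway was represented by HK2 and GPI. HK2 (chromosome 2, 74832655 to 74893354, NM_000189) had 0.736 and 1.16 scaled FPKM in the miR-28CT and 1.10 and 1.42 in the miR-28BIO libraries. It was the only glycolysis gene with a positive log2 fold change, 0.39 (SE 0.54 by limma, adjusted p = 1.00), but the lower miR-28BIO library did not reach the higher miR-28CT library. Its coverage corresponds to only 91 to 161 reads per library. The deposited FPKM of HK2 was below its Cufflinks interval in both replicate 2 libraries, at 0.991 against 1.10 to 1.76 (miR-28CT) and at 1.55 against 1.85 to 2.63 (miR-28BIO). With a library left out, the log2 fold change of HK2 ranged from 0.095 to 0.69. GPI (chromosome 19, 34365127 to 34402413, NM_000175) was at 27.0 and 77.2 scaled FPKM in the miR-28CT and 25.2 and 70.1 in the miR-28BIO libraries. Here the replicates of an arm differed 2.86-fold and 2.78-fold, while libraries with the same number differed little between arms, with a log2 fold change of -0.12 (SE 0.88 by limma, adjusted p = 1.00). It was 0.64 without miR-28CT replicate 2 and 0.62 without miR-28BIO replicate 1. It was -0.88 without miR-28CT replicate 1 and -0.86 without miR-28BIO replicate 2, so its sign changed with the library left out. The replicate numbers are then unequal between arms, and the difference between replicates enters these values. Between same-numbered libraries the log2 differences were -0.0998 (replicate 1) and -0.139 (replicate 2) under the scaling used here. A GPI record on an alternate locus was above 0 in miR-28BIO replicate 1 alone, at 0.0549 FPKM.

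ALDOA (chromosome 16, 30064279 to 30070420), the aldolase of muscle and most other tissues, had 341.8 and 650.5 scaled FPKM in the miR-28CT and 213.1 and 270.3 in the miR-28BIO libraries. Both miR-28BIO libraries lay below both miR-28CT libraries, at 241.7 ± 40.4 against 496.1 ± 218.3 (SD, n = 2 each). Between arms the log2 fold change was -0.97 (SE 0.75 by limma, adjusted p = 1.00). It was -0.51 without miR-28CT replicate 2 and -1.44 without miR-28CT replicate 1. Reads of ALDOA were assigned to different records in the replicates. NM_184043, which starts at 30064279, took 89.4% of the gene's FPKM in miR-28CT replicate 1 and 100% in miR-28BIO replicate 1, but 7.21% and 20.0% in the replicate 2 libraries. NM_184041, which starts further downstream at 30065673, held the rest, at 38.6, 513.3, 0 and 235.2 FPKM. The records differ in where they start and in length, 1551 and 1579 bases. The log2 fold change of NM_184041 alone, -4.99 (SE 4.22 by limma, adjusted p = 1.00), rests on a library listed at 0. Whether the start of transcription or the assignment of reads differed between replicates was not tested.

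TPI1 (chromosome 12, 6867420 to 6870946) was the gene with the lowest log2 fold change. Its level was 43.4 and 177.4 scaled FPKM in the miR-28CT and 21.9 and 83.7 in the miR-28BIO libraries. Replicate 2 was 4.08 times replicate 1 in the miR-28CT and 3.82 times in the miR-28BIO arm, so the arms overlapped widely, at 110.4 ± 94.7 and 52.8 ± 43.8 (SD, n = 2 each). Between libraries with the same number, miR-28BIO was 0.504 and 0.472 times miR-28CT. The log2 fold change was -1.03 with a 95% interval of -4.06 to 1.99 (SE 1.10 by limma without a block, adjusted p = 1.00). It was -0.021 without miR-28CT replicate 2 and -0.068 without miR-28BIO replicate 1. It was -2.05 without miR-28CT replicate 1 and -2.001 without miR-28BIO replicate 2. In these comparisons the replicate numbers are unequal between arms, so the difference between replicates enters them. The size of the fold change is uncertain. NM_000365 carried 81.7% and 84.3% of the gene's FPKM in the replicate 1 libraries and 100% in the replicate 2 libraries, and NM_001258026 carried the rest. In miR-28CT replicate 2 the deposited FPKM of NM_000365, 150.8, lay above its own Cufflinks interval of 115.8 to 129.0.

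GAPDH (chromosome 12, 6534405 to 6538375) followed the same order of libraries as TPI1 with a narrower range. It had 326.6 and 723.9 scaled FPKM in the miR-28CT and 199.1 and 363.9 in the miR-28BIO libraries, so that miR-28BIO replicate 2 exceeded miR-28CT replicate 1. The log2 fold change was -0.85 with a 95% interval of -3.18 to 1.47 (SE 0.84 by limma, adjusted p = 1.00). It was -0.28 without miR-28CT replicate 2 and -1.43 without miR-28CT replicate 1, so its size depends on the libraries compared. Between libraries with the same number the log2 differences were -0.71 (replicate 1) and -0.99 (replicate 2). All FPKM of GAPDH was assigned to NM_001289746, and the other 3 records, NM_002046 included, were listed at 0. The other qRT-PCR reference genes had fold changes of opposite sign. ACTB, a cytoskeletal actin, had 403.1, 814.3, 328.9 and 464.0 scaled FPKM with a log2 fold change of -0.55, and HPRT1, an enzyme of purine salvage, had 6.52, 3.63, 8.50 and 4.58 with a log2 fold change of 0.35 (limma, SE 0.81 and 0.57, adjusted p = 1.00 each), and both were above 0 with equal total FPKM. In both genes the libraries of the arms overlapped.

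**Figure D2:**
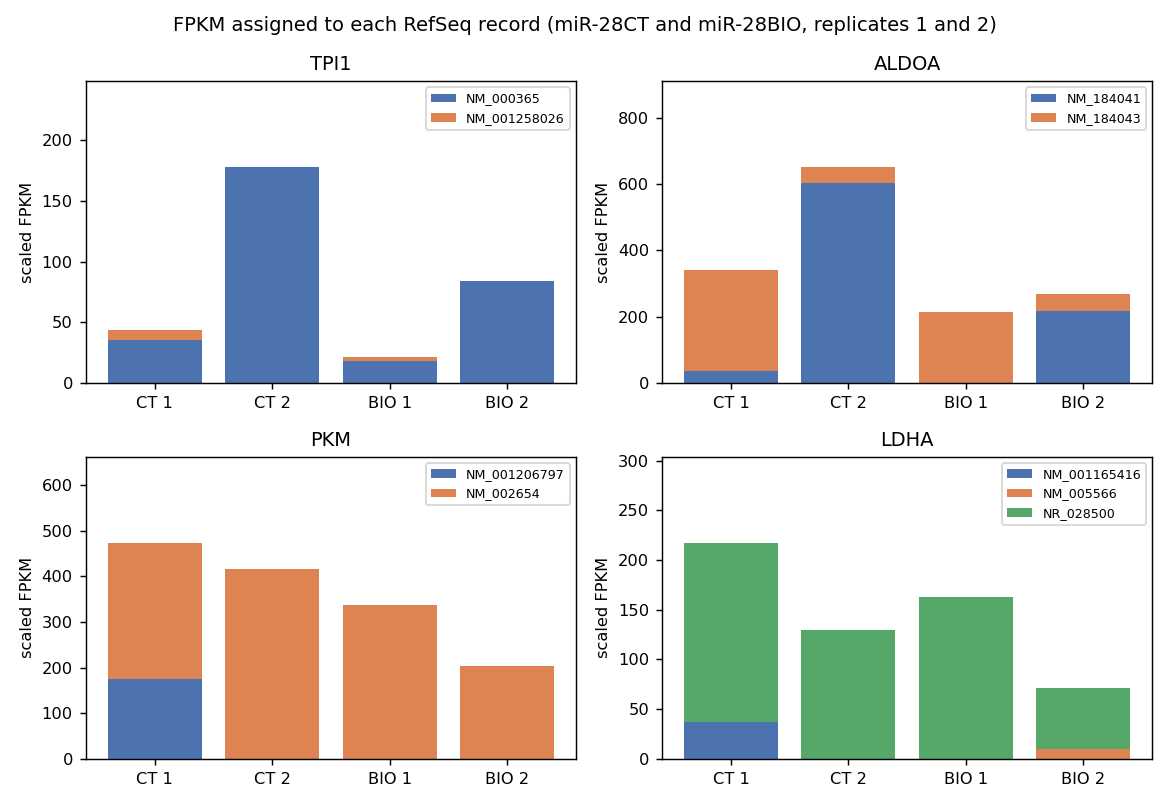
Scaled FPKM of each RefSeq record above 0 (stacked colours) in the 4 libraries, for TPI1, ALDOA, PKM and LDHA, on linear axes that start at 0. ALDOA is assigned mainly to NM_184043 in the replicate 1 and to NM_184041 in the replicate 2 libraries, and a second PKM record, NM_001206797, appears in miR-28CT replicate 1 alone at 174.2.

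The ATP-forming step after GAPDH is carried out by PGK1. This gene (chromosome X, 78104169 to 78126827, NM_000291) was at 45.5 and 37.5 scaled FPKM in the miR-28CT and 35.5 and 39.0 in the miR-28BIO libraries. Its log2 fold change was -0.15 with a 95% interval of -1.46 to 1.16 (SE 0.47 by limma, adjusted p = 1.00). It was -0.012 without miR-28CT replicate 1 and -0.29 without miR-28CT replicate 2. The deposited FPKM of PGK1 lay outside its own Cufflinks interval in all 4 libraries, for example at 31.9 with an interval of 73.9 to 81.6 in miR-28CT replicate 2 and at 48.5 with 38.4 to 43.4 in miR-28CT replicate 1. By those intervals the replicate 2 libraries would be the higher ones, so the order of the PGK1 libraries is uncertain.

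PGAM1 (chromosome 10, 97426270 to 97433441, NM_002629), which moves the phosphate group from the third to the second carbon, had the smallest unadjusted p of the 10 genes. Its level was 13.9 and 12.8 scaled FPKM in the miR-28CT and 8.06 and 6.10 in the miR-28BIO libraries, or 13.3 ± 0.746 and 7.08 ± 1.39 (SD, n = 2 each). The arms did not overlap. The log2 fold change was -0.92 with a 95% interval of -2.08 to 0.24 (SE 0.42 by limma, unadjusted p = 0.0938, adjusted p = 1.00). ENO1 (chromosome 1, 8861000 to 8879092, NM_001428), which forms phosphoenolpyruvate, had 371.4 and 555.8 scaled FPKM in the miR-28CT and 271.3 and 481.9 in the miR-28BIO libraries. The arms overlapped, with a log2 fold change of -0.33 (SE 0.78 by limma, adjusted p = 1.00), which was 0.085 without miR-28BIO replicate 1 and -0.039 without miR-28CT replicate 2. Its deposited FPKM was below its Cufflinks interval in both replicate 2 libraries, at 472.7 against 634.2 to 659.4 and at 524.1 against 564.4 to 586.7.

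**Figure D3:**
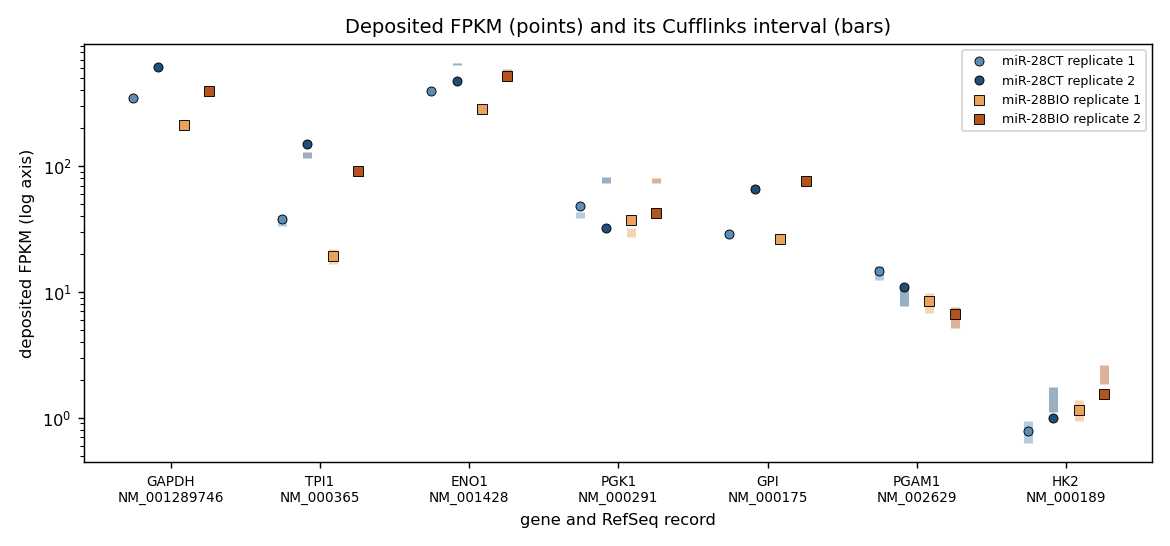
Deposited FPKM (points, log axis) of the main record of 7 glycolysis genes with the Cufflinks interval deposited beside each value (bars), by library. The point lies outside its bar in 4 libraries for PGK1, in 2 each for ENO1 and HK2 and in 1 for TPI1, and in none for GAPDH, GPI and PGAM1.

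PKM (chromosome 15, 72199029 to 72231386), pyruvate kinase, makes alternative enzymes from mutually exclusive exons. PKM1 is typical of muscle and brain, and PKM2 of proliferating and tumour cells. The PKM2 record NM_002654 was at 318.2, 354.2, 356.7 and 222.0 FPKM, while the PKM1 records NM_182470 and NM_182471 were listed at 0 in all 4 libraries. NM_182470 has the span and length of the GENCODE 44 transcript PKM-201, while NM_002654 and NM_182471 matched no GENCODE transcript in this way and their forms are given as background. NM_001206797, whose span and length are those of PKM-203 with the PKM2 exon, was at 185.5 FPKM in miR-28CT replicate 1 and at 0 elsewhere. NM_002654 and NM_182471 share their span and their length of 2501 bases, and reads over the differing exons were not examined here. The split between the forms is an assignment by Cufflinks and is uncertain. The exons are shown because they decide between the forms, and they were read from the minus strand of hg38. The PKM1 exon is exon 9 of 11 in PKM-201 (chr15:72203022-72203188), the PKM2 exon is exon 9 of 11 in PKM-202 (chr15:72202454-72202620), and each has 167 bases. Capitals mark the 62 positions at which the exons differ, and the other 105 positions (62.9%) are alike.
PKM1 exon: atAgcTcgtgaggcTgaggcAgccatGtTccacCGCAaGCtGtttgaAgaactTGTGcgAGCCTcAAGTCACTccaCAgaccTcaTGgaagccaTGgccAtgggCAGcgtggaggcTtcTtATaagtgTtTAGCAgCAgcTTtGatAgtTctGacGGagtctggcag
PKM2 exon: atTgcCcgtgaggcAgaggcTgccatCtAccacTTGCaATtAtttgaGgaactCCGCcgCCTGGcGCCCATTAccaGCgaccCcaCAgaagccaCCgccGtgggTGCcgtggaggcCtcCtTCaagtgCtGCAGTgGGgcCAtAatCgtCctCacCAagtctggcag

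Summed over its records, PKM had 473.2 and 416.5 scaled FPKM in the miR-28CT and 337.8 and 204.1 in the miR-28BIO libraries. The arms did not overlap, at 444.8 ± 40.0 and 271.0 ± 94.5 (SD, n = 2 each), and the log2 fold change was -0.76 with a 95% interval of -2.74 to 1.22 (SE 0.72 by limma, adjusted p = 1.00). This separation rests on the sum. NM_002654 alone overlapped between arms, with 298.9 and 416.5 against 337.8 and 204.1 scaled FPKM and a log2 fold change of -0.43 (SE 0.82 by limma, adjusted p = 1.00). The log2 fold change of the sum was -0.39 without miR-28BIO replicate 2 and -1.12 without miR-28BIO replicate 1.

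LDHA (chromosome 11, 18394389 to 18408218) had 217.1 and 130.1 scaled FPKM in the miR-28CT and 163.2 and 71.4 in the miR-28BIO libraries. The arms overlapped, with a log2 fold change of -0.64 (SE 0.75 by limma, adjusted p = 1.00). It was -0.042 without miR-28BIO replicate 2 and -1.23 without miR-28BIO replicate 1, so its size depends on the libraries compared. Between libraries with the same number the log2 differences were -0.41 (replicate 1) and -0.86 (replicate 2). Most of the LDHA FPKM, 83.0%, 100%, 100% and 86.4% in the order of the libraries, was assigned to NR_028500, a record of 2090 bases that RefSeq lists as non-coding. The coding record NM_005566, of 2208 bases, was above 0 only in miR-28BIO replicate 2, at 10.6 FPKM, and NM_001165416 only in miR-28CT replicate 1, at 39.3 FPKM. These records end at the same base and the reads themselves were not analysed here, so the split between them is uncertain.

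**Figure D4:**
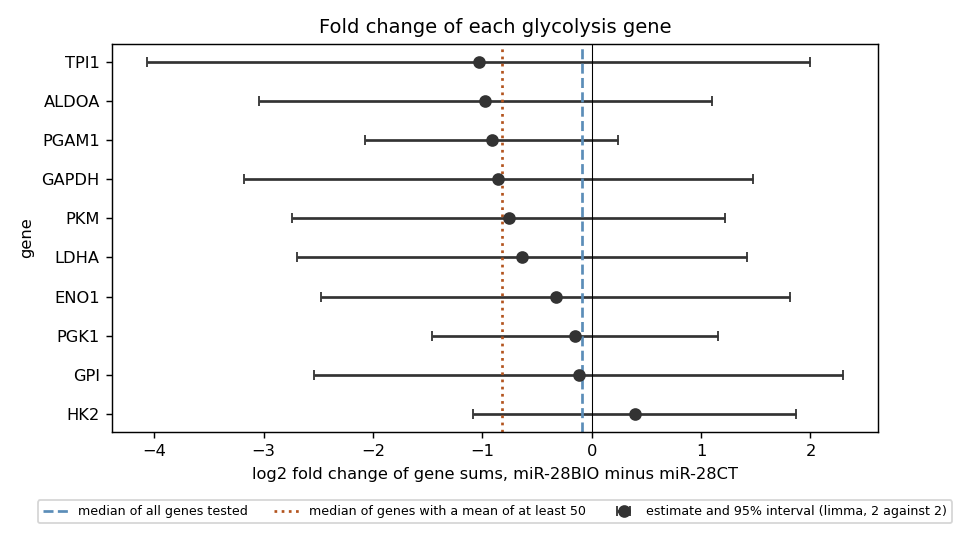
Log2 fold change of each glycolysis gene, miR-28BIO minus miR-28CT, with its 95% interval from limma without a replicate block (2 against 2 libraries). Each of the 10 intervals includes 0, and the estimates lie between -1.03 and 0.39 beside the dashed median of all genes tested (-0.084) and the dotted median of the 525 abundant genes (-0.82), while with equal total FPKM all 10 estimates are positive.

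In several genes the replicates of an arm differed more than the arms under the median-of-ratios scaling, to which the following values belong. Replicate 2 was above replicate 1 in both arms in 6 genes, GAPDH, TPI1, ENO1, ALDOA, GPI and HK2, and below it in both arms in 3, PKM, LDHA and PGAM1. PGK1 was lower in replicate 2 of the miR-28CT and higher in replicate 2 of the miR-28BIO arm. The log2 difference of replicate 2 minus replicate 1 spanned from -0.74 (LDHA) to 2.03 (TPI1) in the miR-28CT and from -1.19 (LDHA) to 1.93 (TPI1) in the miR-28BIO arm. Its median over the 10 genes was 0.59 and 0.34, against 1.41 and 1.25 over the 525 abundant genes and 0 and 0.016 over all genes tested. These directions turn with the scaling. With equal total FPKM, 9 of the 10 genes were lower in replicate 2 in both arms, and TPI1 was lower in it in the miR-28CT (-0.68) and higher in the miR-28BIO arm (0.18). On that scale LDHA had the lowest difference in the miR-28BIO arm (-2.94) and in the miR-28CT arm (-3.45), and TPI1 the highest in both. This order could hardly change, because a scaling factor shifts all genes of a library by nearly the same amount. The labels number the replicates alike in both arms and do not say what libraries with the same number share, and what lies behind these differences was not tested.

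**Figure D5:**
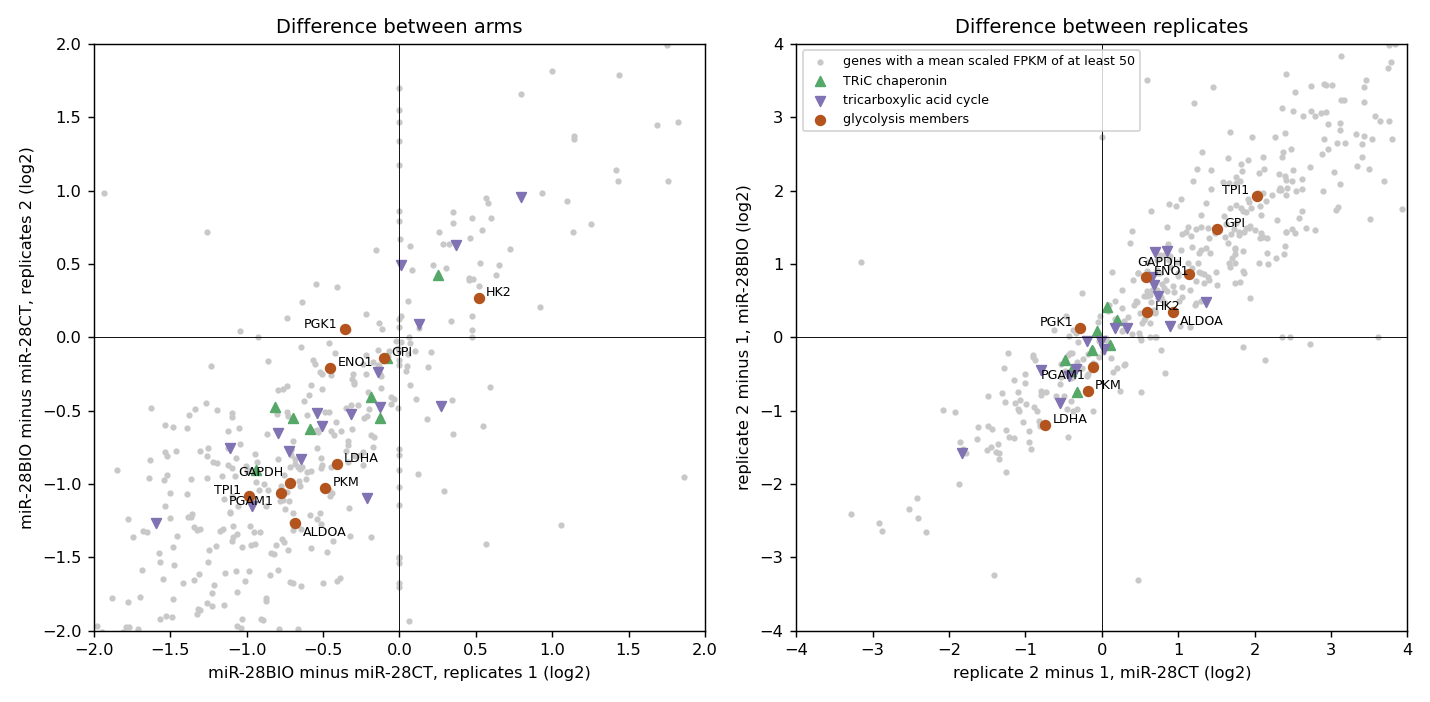
Left, log2 difference between miR-28BIO and miR-28CT in the replicate 1 (horizontal) and replicate 2 libraries (vertical), and right, that between replicates 2 and 1 in the miR-28CT (horizontal) and miR-28BIO arms (vertical), with 1 point per gene, 525 abundant genes in grey (153 and 132 of them outside the axes), triangles for the TRiC chaperonin (up) and the tricarboxylic acid cycle (down). In the left plot 8 glycolysis genes lie in the lower left corner, and in the right plot TPI1 and LDHA lie farthest apart, but with equal total FPKM no glycolysis gene is below 0 in both comparisons of the left plot and 9 are below 0 in both arms of the right plot.

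Genes whose levels followed those of TPI1 and GAPDH were sought among the 525 abundant genes, by the root mean square difference of their centred log2 levels over the 4 libraries. The 5 nearest to TPI1 were PRDX2, an antioxidant enzyme (0.0601), and the ribosomal protein genes RPL29 (0.0762), RPL37A (0.104), RPS12 (0.127) and RPL4 (0.133). PRDX2 had 32.5, 135.0, 15.0 and 59.0 scaled FPKM in the order of the libraries. The 5 nearest to GAPDH were H2BC12, a histone gene (0.0598), LTAP1 (0.0680), VCP, an ATPase of protein degradation (0.0717), COX4I1, a subunit of cytochrome c oxidase (0.0884), and UCHL1, a ubiquitin hydrolase (0.0969). Other glycolysis genes were farther away, with ALDOA at number 21 and ENO1 at number 59 from GAPDH, TPI1 at number 124 from it, and GAPDH at number 98 from TPI1. With 4 libraries, such likeness is a description and many genes can share a pattern.

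The wider pathway of glucose uptake, the other isozymes and lactate export was described by 30 further genes, of which 16 passed the filter on low values and 0 were called in either direction. Their median log2 fold change was -0.31, with 14 below 0 and 2 above, and in 1 gene of the 16, HK1, both miR-28BIO libraries lay below both miR-28CT libraries. Of all genes tested, 55.9% were below 0 and 12.7% had both miR-28BIO libraries below. This median was 0.050 without miR-28CT replicate 2, 0.018 without miR-28BIO replicate 1 and 1.09 with equal total FPKM. Its sign thus depends on the scaling and on the libraries compared. With a library left out the replicate numbers are unequal between arms, so differences between replicates enter. Between same-numbered libraries the medians of the list were -0.21 (replicate 1) and -0.31 (replicate 2) under the scaling used here. LDHB, the other main subunit of lactate dehydrogenase, was the most abundant, at 109.1, 171.4, 88.7 and 138.7 scaled FPKM. SLC16A3, which exports lactate, had 17.6, 132.7, 8.17 and 90.9, a difference between replicates larger than that of TPI1 in both arms. SLC16A1, another monocarboxylate transporter, had 14.3, 8.11, 13.0 and 8.29 and was lower in replicate 2.

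Among the phosphofructokinases, PFKP had 32.3, 78.3, 21.9 and 46.4 and PFKL 5.68, 33.3, 4.67 and 25.8 scaled FPKM in the same order. PFKM had the lowest log2 fold change of the list, -3.36 (SE 2.45 by limma, adjusted p = 1.00), which rests on miR-28BIO replicate 1 being listed at 0 beside 7.02 and 16.5 in the miR-28CT libraries and 11.1 in miR-28BIO replicate 2. TIGAR, a fructose bisphosphatase, had the highest, 0.18, at 1.56, 0.633, 1.84 and 0.699. The glucose transporter SLC2A1 had 5.02, 17.6, 5.92 and 18.5, and PFKFB3, which makes the activator fructose 2,6-bisphosphate, 5.14, 11.1, 4.95 and 8.92. For both the replicates differed more than the arms.

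Other lists also had medians below 0 under the scaling used here and medians above 0 with equal total FPKM. The TRiC chaperonin, 8 genes whose products fold actin and tubulin, had a median log2 fold change of -0.47 with 7 of 8 below 0, and both miR-28BIO libraries were below both miR-28CT libraries in 5 of 8, against 12.7% of all genes tested. For the tricarboxylic acid cycle the median was -0.53, with 13 of 17 below 0, 8 of 17 separated in this way and 2 in the other direction, for which the share of all genes is 12.3%. The 15 genes of the pentose phosphate branch and of pyruvate use had a median of -0.28, with 10 below 0, 4 separated downward and 3 upward, the latter not far from the 12.3% of all genes. Those 3 were RPE, PDK1 and PDK3, of which PDK1 and PDK3 are kinases that restrain the entry of pyruvate into the mitochondrial cycle. PDK2, a kinase of the same kind on this list, overlapped between arms, at 3.52, 10.7, 3.98 and 10.1 scaled FPKM with a log2 fold change of 0.046. PDK1 had 2.99 and 3.45 scaled FPKM in the miR-28CT and 6.12 and 5.05 in the miR-28BIO libraries, with a log2 fold change of 0.77 (SE 0.39 by limma, adjusted p = 1.00). In each of these lists limma called 0 genes, 1 gene of the tricarboxylic acid cycle, SUCLA2, and none of the others had an unadjusted p under 0.05, and no test of a difference between lists was made. With equal total FPKM over OK records the medians were 1.00 for the chaperonin, 0.92 for the cycle and 1.17 for the branch list, below the 1.29 of all genes.

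Several glycolysis genes have processed pseudogenes of similar sequence. RefSeq names 65 pseudogenes after GAPDH, 13 after PGAM1, 6 after LDHA, 5 after PKM, 4 each after TPI1 and ENO1, 2 each after PGK1 and ALDOA and 1 after HK2. Only 2 pseudogenes of TPI1 and 1 of PGAM1 had a record here, with summed FPKM of 1.67 to 2.40 per library for TPI1 and at most 0.0229 for PGAM1. How reads that align to several places were shared is not given in the sources used here, so the levels of GAPDH and PGAM1 in particular are uncertain by reads that could belong to a copy.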

How the data were processed

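RNA of the miRNA pull out assay was measured in 4 libraries, 2 miR-28CT and 2 miR-28BIO, grouped and numbered by their labels. According to the methods and the submitters' processing notes, the authors checked reads with FastQC 0.10.1, trimmed them with cutadapt, aligned them to hg38 with TopHat2 2.0.9 and estimated transcripts with Cufflinks 2.1.1. The authors deposited FPKM, the bounds of an interval for each FPKM and a status for 53209 RefSeq records per library. The deposited coverage is a signal, the mean number of reads over each base, and was used only to estimate depth, as coverage times length divided by the read length of 50 bases. Neither read counts nor Cuffdiff output were used, so no counting error was calculated.

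Records were named by unversioned accession through the RefSeq table of GRCh38, which named 98.4% of the 15587 tested records. Scaling factors came from 11650 records above 0 in all libraries among the 52530 with status OK in all of them. FPKM were summed per gene, and a gene was tested if its mean scaled FPKM reached 0.5. The test was limma (lmFit, eBayes with trend, no block) on log2 of the scaled FPKM plus 0.1, with Benjamini-Hochberg adjustment over all genes. Fits for OK records (11307 genes) and all records (11325 genes) were made. The genes, the comparison lists and the rules for naming genes were chosen with earlier results of these data known. From the pathway list, genes among the 8 with the highest means or with the highest or lowest fold change are named. HK1, RPE, PDK1, PDK2, PDK3 and SUCLA2 were named after their values were seen. The study's methods and the design text speak of biological replicates that gave samples of both arms, but neither they nor the labels say what libraries with the same number share, and p-values measure only the spread between these libraries. Of the cell type markers, 2 are not reported here. PKM exons were taken from GENCODE 44. The fits were tested on simulated data. On average they returned the sizes that were put in, and they called most of these changes at a reduced spread. They called none at the spread of these libraries, so a lack of calls does not show a lack of difference. The simulated libraries varied independently, unlike libraries with the same number here, so the simulation cannot show how the replicate block performs on these data. Software was R 4.3.3 with limma 3.58.1, and Python 3.11.15 with numpy 2.4.6, pandas 2.3.3 and matplotlib 3.10.9. Alternatives were other pseudocounts, filters and scalings, all statuses, the record with the highest mean, limma without a trend, the replicate number as a block and leaving out each library.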

Additional observations from a re-analysis of the deposited data

How the results depend on the processing

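With OK records, limma called 3 genes. It called 0 with a pseudocount of 1, a minimum mean of 5, no filter, no trend, the record with the highest mean, or any library left out (0 to 0, the lone library of an arm being assumed to vary like the other arm), and 24 with equal total FPKM (10 higher and 14 lower), under which 10 transcript records were called. The replicate block gave 64 genes, 42 higher and 22 lower, and 61 with all statuses, and all statuses with equal total FPKM gave 21 (8 higher and 13 lower), combinations chosen after seeing the data. None of the 10 glycolysis genes was called under any setting, and the lowest adjusted p (limma) was 0.0866, for TPI1 with all statuses and the replicate block. Under that fit 4 of the 10, TPI1, PGAM1, GAPDH and ALDOA, had an unadjusted p under 0.05 (limma) and 95% intervals below 0, for TPI1 -1.56 to -0.51, against none without the block, and with OK records 3 had. The share of all genes with such a p was 25.7% under that fit and 3.01% with all statuses without the block. Libraries with the same number deviated together across 11307 genes, which are not independent (Pearson r = 0.623, Spearman rho = 0.830), but with 2 numbers and no statement of what a shared number means they were not treated as pairs.

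The median log2 fold change of the glycolysis genes from OK records was -0.61. It was -0.70 with a minimum mean of 5 and with all statuses (with or without the replicate block), -0.53 without scaling and -0.51 with the highest record. From OK records it was 0.77 with equal total FPKM and -0.64 to -0.40 with a library left out. With all statuses, the medians with a library left out covered a wider range and were weakest without miR-28BIO replicate 1. For the wider pathway list, -0.31 became 1.09 with equal total FPKM and -0.69 to 0.050 with a library left out. Equal totals moved the median of all genes from -0.084 to 1.29 and made GAPDH 0.62, PGK1 1.31, ENO1 1.14, ALDOA 0.50, PKM 0.71, LDHA 0.83, GPI 1.35 and PGAM1 0.53, while TPI1 and HK2 kept their signs. With all statuses as well, the median of all genes was 1.12, that of the glycolysis genes 0.59, and GAPDH was 0.44, TPI1 0.25, PGK1 1.13, ENO1 0.96, ALDOA 0.32, PKM 0.53, LDHA 0.65, GPI 1.17 and PGAM1 0.36. Without scaling PGK1 was 0.020 and GPI 0.052, beside a median of all genes of 0.079. With a library left out, TPI1 from OK records ranged from -3.75 to 2.57, ENO1 from -0.74 to 0.085 and GPI from -0.88 to 0.64, and TPI1 with all statuses, added after seeing the data, from -2.05 to -0.021. The others kept their sign but not their size: LDHA -1.23 to -0.042, GAPDH -1.43 to -0.28, ALDOA -1.44 to -0.51, PKM -1.12 to -0.39, PGAM1 -1.11 to -0.72, PGK1 -0.29 to -0.012 and HK2 0.095 to 0.69.

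Genes with both miR-28BIO above both miR-28CT libraries numbered 0 of 10, 1 without scaling (15.5% of all genes tested), 2 with equal total FPKM (25.9%) and 0 to 1 with a library left out (25.01% to 31.9%). Those with both below numbered 3, 2 without scaling (8.45% of all genes tested), 0 with equal total FPKM (0.480%), 1 with the highest record (13.1%) and 4 to 7 with a library left out (28.5% to 39.1%), where fewer libraries make separation easier. The cause of the other changes was not tested. With 2 libraries per arm and no read counts, the 95% intervals of the fits without a block were wide.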
